A study of Sorghum bicolor with 15 samples.

Results

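The roots of Shanqui Red (SQR), a sorghum variety susceptible to the parasitic weed Striga, were compared at 28 and 35 d of plant age. The comparison used 7 of the 15 libraries with a sample description, chosen by their labels alone: 4 biological replicates of SQR at 28 d and 3 at 35 d. The other 8 libraries were SRN39, a Striga-resistant variety, with 4 replicates at each age, and they entered the model as further groups. No transgene or introduced allele is named for either variety, and their plants shared 1 growth scheme: seedlings in a plug of sterilized soil, then sand-filled cones in a greenhouse, in random order, with a nutrient solution low in phosphate. No group received another treatment. The whole root system was washed, dried and frozen early in the light period at either age, so the low phosphate supply and the handling of the roots were common to all groups. Age and day of harvest cannot be told apart in this design. How many plants made up a replicate is not given in the sources used here, so the p-values measure the spread between these libraries only.

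Between these ages a sorghum root system is in vegetative growth, adding and extending crown and lateral roots while older segments mature. Under low phosphate, sorghum roots release strigolactones, hormones that also shape root branching and that make Striga seeds germinate. LGS1, a sulfotransferase, determines which strigolactone dominates in the exudate, and SRN39 is a variety in which LGS1 function is lost. Whole root RNA mixes all cell types of the organ, so fewer cells of a type and less RNA per cell cannot be told apart in the values below.

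Each read of these 3′ libraries comes from near the end of a transcript, so a count stands for transcripts without a correction for gene length, and levels were compared between libraries and not between genes. They are given as CPM, counts divided by the library total and a TMM factor and set to a common scale. SQR libraries held 6369710 to 17304929 counts, the smallest being replicate 4 and the largest replicate 3 at 28 d. SQR at 35 d was the group with the widest spread. Its mean variance of log2 CPM was 0.362 (n = 3), against 0.201 in SQR at 28 d and 0.178 and 0.144 in SRN39 at 28 and 35 d (n = 4 each). Replicate 2 at 35 d stood furthest from its group, with a mean correlation across genes of 0.918 with the other 2 libraries of that age (genes are not independent replicates), and its 10 most abundant genes took 8.39% of its counts, against 12.8% to 16.6% in the other 6 SQR libraries. LGS1 (Sobic.005G213600) had 233 to 1012 counts in the SQR libraries and 5 to 24 in those of SRN39, which places every library with the genotype of its label. Marker lists for photosynthetic tissue, the Casparian strip and sorgoleone-producing root hairs matched none of the genes described in the sources, so the tissue was not checked by markers here.

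Of 34129 genes in the table, 17137 had more than 1 CPM in at least 3 of the 7 SQR libraries and were tested. A gene was called when its Benjamini-Hochberg adjusted p was under 0.05. The study fitted genotype by time with limma-voom and states 4 biological replicates for each genotype and age. Here, with all 15 libraries in 1 edgeR model of 4 groups, 599 genes were called between 28 and 35 d in SQR, which is 3.5% of those tested. At 35 d, 256 were higher (1.49%) and 343 lower (2%). When the model held the 7 SQR libraries alone, so that the spread was estimated from SQR only, edgeR called 2 genes (0.0117%), both higher at 35 d and both among the 599. In that model 2861 genes had an unadjusted p under 0.05, and 94 an adjusted p under 0.1, of which 88 were among the 599. Limma-voom with 1 quality weight for each group, which lets SQR at 35 d count for less, called 5 genes, and DESeq2 called 1405 with 15 libraries and 505 with 7. The verbs "rose" and "fell" below refer to the 15-library edgeR model, and of the 28 genes named below that it called, 2 were also called from the 7 SQR libraries alone. The largest rises and falls were named only where the libraries of the ages did not overlap. Their lack of overlap is therefore no separate evidence for a change.

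Single libraries moved these counts widely. In the 15-library model they ranged from 79 called genes without replicate 4 at 28 d to 2128 without replicate 3 at 35 d. Other counts were 111 without replicate 2 at 35 d, 175 without replicate 1 at 28 d, 304 without replicate 1 at 35 d, 339 without replicate 3 at 28 d and 898 without replicate 2 at 28 d. The 7-library edgeR model called 0 to 52 genes when 1 library was left out, with 1659 to 3767 at an unadjusted p under 0.05. For single genes, the fits without 1 library given here and below are those of the 15-library model. Of the 28 named calls, 19 were lost without replicate 2 at 35 d and 12 without replicate 1 at 35 d. Without replicates 4, 1 and 3 at 28 d, 17, 13 and 10 were lost. Without replicate 2 at 28 d or replicate 3 at 35 d, 0 were lost. The 8 that were kept in all 7 of these fits were Sobic.001G034900, Sobic.001G311200, Sobic.001G384100, Sobic.001G492000, Sobic.002G118300, Sobic.004G283201, Sobic.006G184800 and the neighbour of the last, described below. Of the variation in log2 CPM among the 7 SQR libraries, 32% lay between the ages, more than any other division of them into 4 and 3 (one-sided exact permutation test over 35 assignments, p = 0.0286, the smallest these allow). That test takes the spread as equal at both ages, but the mean variance was 0.362 at 35 d and 0.201 at 28 d. Its p can therefore reflect the unequal spread as well as age.

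**Figure D1:**
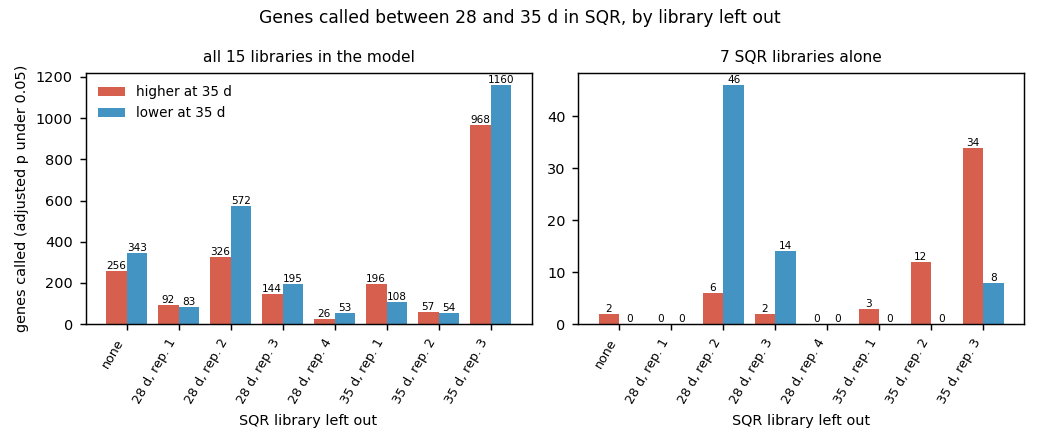
Number of genes called higher (red) or lower (blue) at 35 d in SQR roots, by the SQR library left out, with all 15 libraries in the edgeR model (left) and with the 7 SQR libraries alone (right, a smaller scale). With all libraries kept the bars show 256 and 343 genes on the left and 2 and 0 on the right, and the tallest pair on the left, 968 and 1160, belongs to the fit without replicate 3 at 35 d.

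The 2 largest rises were in genes that were at or near 0 in every library except those of SQR at 35 d. Sobic.004G283201, for which the sources used here give no description, had 0 counts in each of the 4 libraries at 28 d. At 35 d it had 142, 759 and 119 counts in replicates 1, 2 and 3. The 8 SRN39 libraries held 4 counts in all. Against a floor of 3 counts over the 28 d group, its level was at least 376-fold higher at 35 d (adjusted p = 0.000424 from edgeR with 15 libraries, 0.0593 with the 7 SQR libraries), or at least 144-fold from the 261 counts left without replicate 2. Sobic.006G184800, also without a description, had 0, 1, 0 and 1 counts at 28 d and 135, 471 and 82 at 35 d. Its ratio of 35 to 28 d was 381, with an exact 95% counting interval of 105 to 3149 (adjusted p = 0.000267 and 0.0341 in the 15- and 7-library edgeR models). Without replicate 2 at 35 d the ratio was 180, with an interval of 49.2 to 1496. SRN39 again held 4 counts over 8 libraries. The difference between the age changes of the genotypes was called for Sobic.004G283201 (adjusted p = 0.0279, edgeR interaction test). It was not called for Sobic.006G184800 (adjusted p = 0.0719, same test). Both genes were named under a rule that asked for no overlap between the ages. In both, replicate 2 was the highest of the 35 d libraries.

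Each of these genes has a neighbour that also rose. The tested ID next to Sobic.004G283201 had at most 3 counts in each 28 d library, 72 to 615 at 35 d and at most 14 in SRN39. The ID next to Sobic.006G184800 was the other gene called from the 7 SQR libraries alone. It was at 0.970, 0.395, 0.127 and 0.324 CPM at 28 d and at 6.44, 29.2 and 23.9 CPM at 35 d, a log2 fold change of 5.54 (SE, the standard error, 0.62, adjusted p = 0.000424 from edgeR). All 35 d libraries lay above all 28 d libraries, and SRN39 stayed between 0 and 0.539 CPM. Over the whole table, 3 genes had 3 counts or fewer in each 28 d library and 50 or more in each 35 d library of SQR, and 0 genes showed the reverse. The 3 were Sobic.004G283201, its neighbour and Sobic.006G184800, but not the neighbour of the latter. Whether reads are shared between neighbouring or near-identical genes was not tested. Both printed genes were called in all 7 fits that left out 1 SQR library.

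**Figure D2:**
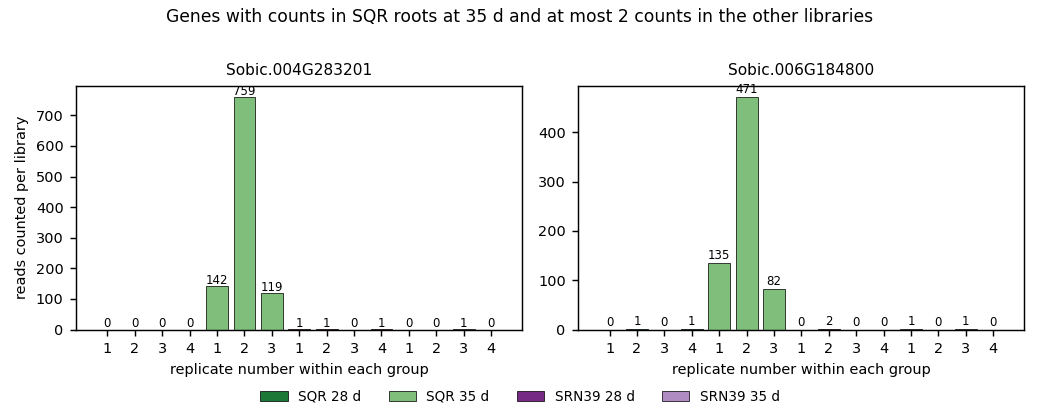
Reads counted on Sobic.004G283201 (left) and Sobic.006G184800 (right) in each of the 15 libraries, with replicates side by side within each group. Counts of 119 to 759 and of 82 to 471 were found in the 3 SQR libraries at 35 d, and 2 or fewer in each other library.

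Descriptions of genes were at hand for 413 IDs, 402 of them on chromosome 1, each by its best Arabidopsis and rice match. The study chose these genes for a difference between SQR and SRN39 in a model that included these SQR libraries. Their direction with age is therefore not independent of that choice. Of these, 377 were tested here, and 23 (6.10%) were called: 5 rose and 18 fell, beside 1.49% and 2% of all genes tested. Their median log2 fold change was -0.04, against 0.06 over all genes tested.

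The largest fall among described genes was that of Sobic.001G200700, which matches Arabidopsis RD29B (LTI65, CAP160 protein), a gene that responds to dehydration and abscisic acid. It stood at 219, 47.6, 470 and 109 CPM at 28 d and at 6.82, 4.96 and 3.57 CPM at 35 d. Its lowest 28 d library lay above all 35 d libraries, and replicate 3 was the highest at 28 d. The log2 fold change was -5.36 (SE 0.97, adjusted p = 0.0123 from edgeR), and the call was lost without replicate 2 at 35 d. Sobic.001G492000, a late embryogenesis abundant protein of the embryonic DC-8 type, a family that protects proteins and membranes in drying cells, was at 88.2, 39.6, 315 and 65.5 CPM at 28 d. At 35 d it was at 7.73, 5.35 and 2.69 CPM. The groups were again apart, with a log2 fold change of -4.6 (SE 0.81, adjusted p = 0.0108), and this call was kept in all 7 fits without 1 library.

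Sobic.001G409400 matches rice RCI2-5 of the low temperature and salt responsive family of small membrane proteins. It was at 497, 161 (replicate 2), 1571 (replicate 3) and 346 CPM at 28 d and at 55.5, 22.2 and 21.1 CPM at 35 d. It fell by 4.29 on the log2 scale (SE 0.87, adjusted p = 0.0181), and its call was lost without replicate 2 at 35 d. Sobic.001G311200, an EC metallothionein-like protein, a zinc-binding type known from seeds, was at 2.91, 2.05, 8.94 and 2.75 CPM at 28 d and at 0.607, 0.155 and 0.238 CPM at 35 d. It fell by 3.62 on the log2 scale (SE 0.59, adjusted p = 0.00846), with no overlap between ages. Sobic.001G396900, a match of Arabidopsis OEP16-S in the Tim17/Tim22/Tim23 family of membrane channels, was at 5.94, 2.92, 19.9 and 6.47 CPM and then at 1.14, 0.775 and 0.159 CPM. Its log2 fold change was -3.67 (SE 0.89, adjusted p = 0.0389), a call lost in 5 of the 7 fits without 1 library.

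Other described genes also fell. Sobic.001G384100, a cofactor-independent phosphoglycerate mutase of glycolysis, was at 64.8, 17.6, 122 and 47.6 CPM at 28 d and at 4.47, 7.29 and 4.6 CPM at 35 d (log2 fold change -3.53, SE 0.61, adjusted p = 0.00959). Sobic.001G034900, a match of actin depolymerizing factor ADF3, which severs actin filaments, was at 101, 34.5, 241 and 63.3 CPM and then at 8.95, 11.4 and 10.4 CPM (log2 fold change -3.43, SE 0.63, adjusted p = 0.0129). Both calls were kept in all 7 fits without 1 library, and in both genes replicate 3 was the highest and replicate 2 the lowest at 28 d. Sobic.001G383000, which matches the large-subunit ribosomal protein RPL10, fell from 10.5 to 70.9 CPM over the 28 d libraries to 2.22 to 5.89 CPM at 35 d (log2 fold change -3.09, SE 0.64, adjusted p = 0.0207). Also falling were the WD40 repeat proteins Sobic.001G163600 and Sobic.001G353400 (log2 fold changes -3.47 and -1.97) and the EF-hand protein Sobic.001G048900 (log2 fold change -2.26), with adjusted p of 0.0401, 0.0397 and 0.0466. In Sobic.001G353400 the ages overlapped.

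Membrane transporters were among the genes that fell. Sobic.001G208500 matches beta-TIP, an aquaporin of the tonoplast that is known from seed storage vacuoles in Arabidopsis. It was at 7.28, 8.21, 27.9 and 35.8 CPM at 28 d and at 2.58, 2.09 and 5.15 CPM at 35 d. The ages did not overlap, and here replicate 4 was the highest at 28 d. Its log2 fold change was -2.59 (SE 0.50, adjusted p = 0.0149), a call lost without replicate 4 at 28 d and without replicate 2 at 35 d. Sobic.001G195800 matches NIP5;1, a channel for boric acid uptake in Arabidopsis roots, and was at 706, 441, 410 and 489 CPM and then at 241, 219 and 255 CPM. It fell by 1.10 on the log2 scale (SE 0.27, adjusted p = 0.0404). The genes Sobic.001G373600 and Sobic.001G377600 belong to the MtN3 family, which includes the SWEET sugar transporters. The first was at 1.97 to 12.5 CPM at 28 d and 0.152 to 1.82 CPM at 35 d, and the second at 3.4 to 17.2 and 1.51 to 3.10 CPM. Their log2 fold changes were -3.29 and -1.99 (SE 0.8 and 0.46, adjusted p = 0.0397 and 0.0349), and each call was lost in 5 of the 7 fits without 1 library.

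Over the 12 described genes that fell by more than 2 on the log2 scale, 28 d libraries differed widely among themselves. In 11 of these genes replicate 3 was the highest 28 d library, and in 11 replicate 2 was the lowest, with 4.35- to 9.87-fold between the highest and the lowest library. Summed over these genes, the level was 1048, 337, 2931 and 726 CPM in replicates 1 to 4 at 28 d and 97.3, 65.7 and 57.5 CPM at 35 d. Sobic.001G409400 alone gave 1571 of the 2931 CPM in replicate 3, so the sums weigh the most abundant genes most. In SRN39 the sum ran from 53.6 to 297 CPM at 28 d and from 49.9 to 303 CPM at 35 d, below each SQR library at 28 d, and the highest 28 d library was again its replicate 3 in all 12 genes. None of the 12 was called with age in SRN39, and for 8 of them the age change of SRN39 differed from that of SQR by the interaction test, beside 32.4% and 8.06% of all genes tested. The 12 were chosen for their fall in SQR. They come from genes that the study selected for a difference between the genotypes, in a model that included these libraries. Neither count nor the lower level in SRN39 is therefore independent of that choice.

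**Figure D3:**
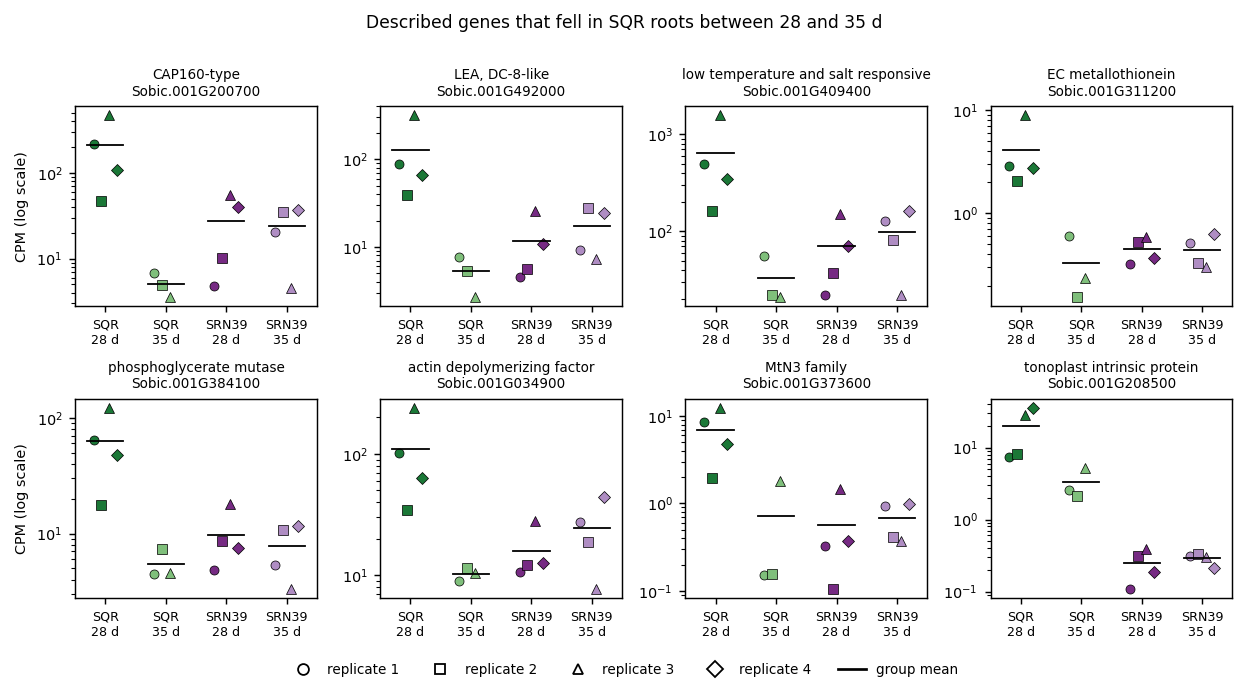
CPM (log scale) of 8 described genes that fell in SQR roots, in each library of SQR and SRN39 at 28 and 35 d. Symbols give the replicate number and lines the group means. In all 8 genes the SQR libraries at 28 d lie above those at 35 d, with replicate 3 (triangles) highest in 7 of them.

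Smaller falls were found at moderate to high levels. Sobic.001G056100, which matches IAA3/SHY2, an Aux/IAA repressor of the auxin response, was at 19.5, 24.0, 32.3 and 32.2 CPM at 28 d and at 10.1, 10.2 and 16.2 CPM at 35 d. The ages did not overlap, and the log2 fold change was -1.15 (SE 0.24, adjusted p = 0.0218). In SRN39 the same gene went the other way, from 7.92 ± 1.23 to 15 ± 3 CPM (SD, n = 4 each), and the difference between the changes was 2.07 on the log2 scale (SE 0.33, adjusted p = 0.00282 from the edgeR interaction test). Sobic.001G123300, a match of the beta-glucosidase BGLU44, fell by 1.25 from 306 ± 67.6 (SD, n = 4) to 129 ± 50.6 CPM (SD, n = 3), and Sobic.001G264700, a match of the peptidyl-prolyl isomerase ROC3, by 0.84 from 316 ± 66.8 to 177 ± 43.6 CPM, on the log2 scale (edgeR adjusted p = 0.0425 and 0.0401). Their ages did not overlap.

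The 5 described genes that rose changed less than the largest falls. Sobic.001G079500, which matches ZAT10/STZ, a zinc finger repressor induced by salt and drought in Arabidopsis, was at 31.5, 54.1, 52.9 and 28.6 CPM at 28 d and at 105, 127 and 58.1 CPM at 35 d. The lowest 35 d library, replicate 3, lay just above the highest 28 d library. Its log2 fold change was 1.20 (SE 0.26, adjusted p = 0.0228). It also rose in SRN39, by 1.09 (adjusted p = 0.00334), and the difference between the genotypes was not called (-0.11, SE 0.35, adjusted p = 0.887). Sobic.001G020200, a zinc finger protein that matches STOP1, a factor needed for tolerance of acid soil and aluminium in Arabidopsis, was at 1.09, 1.5, 1.14 and 0.971 CPM and then at 2.35, 4.34 and 3.25 CPM. It rose by 1.47 on the log2 scale (SE 0.34, adjusted p = 0.0349), with replicate 2 the highest at 35 d.

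Sobic.001G475900, a zinc-binding alcohol dehydrogenase family protein, was at 8.25, 13.7, 10.7 and 9.55 CPM at 28 d and at 16.9, 24.7 and 17.2 CPM at 35 d (log2 fold change 0.88, SE 0.21, adjusted p = 0.0352). It rose by 1.13 in SRN39 too. Sobic.001G209300, of the plant basic secretory protein family, was at 21.6, 18.4, 27.6 and 15.2 CPM and then at 36.7, 43.1 and 38.8 CPM (log2 fold change 0.92, SE 0.18, adjusted p = 0.0159). All 35 d libraries lay above all 28 d libraries in both genes. In SRN39 the secretory protein gene was at 83.9 ± 6.04 CPM at 28 d and at 36.6 ± 5.12 CPM at 35 d (SD, n = 4 each), so the genotypes changed in opposite directions, with a difference of -2.12 (SE 0.25, adjusted p = 0.000521 from the interaction test). The last, Sobic.001G142800, matches the zinc transporter ZIP10 and was at 2.55, 4.27, 1.14 and 1.29 CPM at 28 d and at 16.7, 13.0 and 1.66 CPM at 35 d. Replicate 3 at 35 d overlapped the younger libraries. Its log2 fold change was 2.15 (SE 0.54, adjusted p = 0.0416), and limma-voom with quantile normalization did not call it (adjusted p = 0.147).

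**Figure D4:**
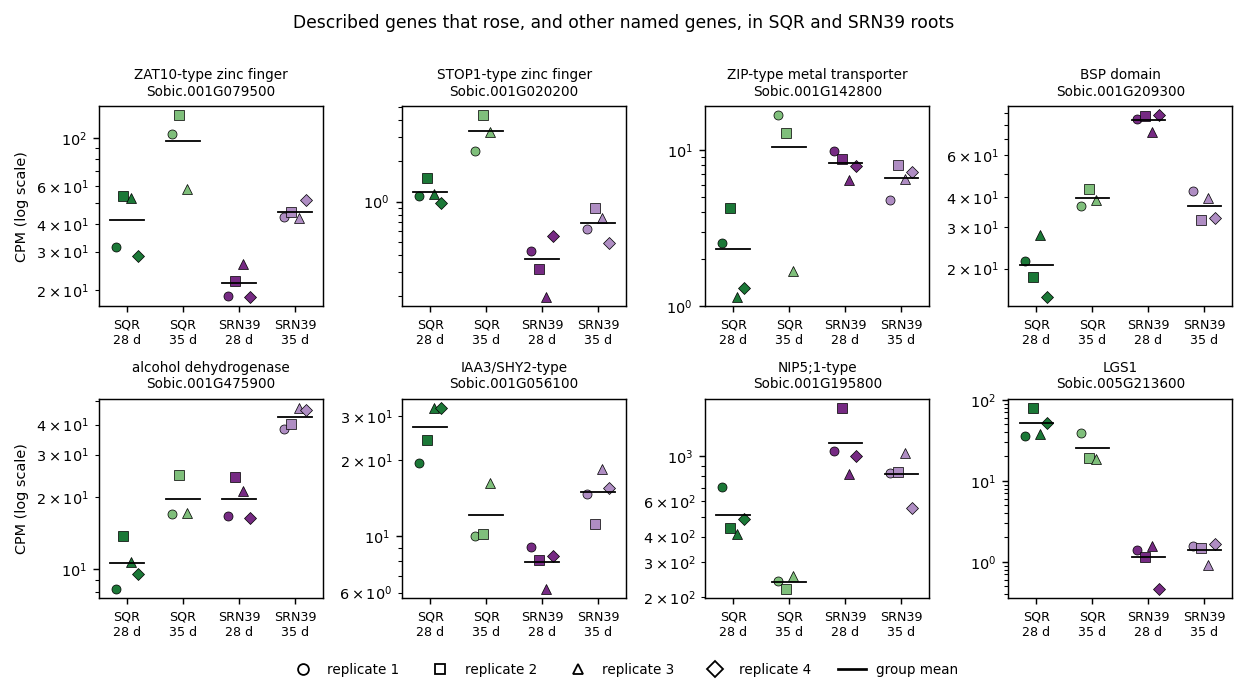
CPM (log scale) of the 5 described genes that rose in SQR and of 3 other named genes, in each library of SQR and SRN39 at 28 and 35 d. Symbols give the replicate number and lines the group means. IAA3/SHY2 (Sobic.001G056100) and the BSP gene (Sobic.001G209300) move in opposite directions in the 2 genotypes, and LGS1 is near 1 CPM in all SRN39 libraries.

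Among strigolactone genes none was called with age in SQR. LGS1 was at 35.9, 79.9, 38.2 and 52.3 CPM at 28 d and at 39.3, 19.4 and 18.5 CPM at 35 d. Replicate 1 at 35 d lay within the range of the younger roots, and the log2 fold change of -1 (SE 0.33) missed the threshold (adjusted p = 0.0859). Of 14 other settings only 1 called it, DESeq2 with 15 libraries (adjusted p = 0.0447). EdgeR with the 7 SQR libraries gave 0.233 and limma-voom with group weights 0.240. Of the 7 edgeR fits without 1 library only 1 called it. That fit left out replicate 1 at 35 d, the overlapping library (adjusted p = 0.038, log2 fold change -1.46). LBO (Sobic.003G418000), an oxidoreductase late in strigolactone synthesis, was at 15.6, 12.7, 13.7 and 14.6 CPM and then at 9.10, 10.9 and 7.61 CPM. Its ages did not overlap, as in 14.4% of all genes tested, and the log2 fold change was -0.62 (SE 0.23, adjusted p = 0.118). CCD8 (Sobic.003G293600), a carotenoid cleavage dioxygenase of the pathway, was at 2.79 to 5.29 CPM at 28 d and 3.49 to 7.20 CPM at 35 d. The GRAS factors of the NSP1 type, Sobic.001G341400 and Sobic.002G372100, had log2 fold changes of -0.03 and -0.13 (SE 0.30 and 0.27, adjusted p = 0.961 and 0.794). That of SMXL3 (Sobic.008G042800) was -0.25 (SE 0.42, adjusted p = 0.749). For the first of the NSP1 genes the interaction was called, with a change larger by 1.42 in SRN39 (adjusted p = 0.0398). CCD7 (Sobic.006G170300) had 3 to 33 counts in the SQR libraries, over 1 CPM in 2 of them, and was not tested.

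Auxin and abscisic acid genes named in the study showed no called change in SQR. The SAUR genes, small auxin-induced growth regulators, were at 359 ± 84.2 and 227 ± 41.8 CPM for the OsSAUR72 homologue Sobic.002G259100 at 28 and 35 d (SD, n = 4 and 3). The log2 fold change was -0.66 (SE 0.22, adjusted p = 0.0919 from edgeR). Of 14 other settings only 1 called it, DESeq2 with 15 libraries (adjusted p = 0.0354), while limma-voom with quantile normalization gave 0.205. The OsSAUR72-like gene Sobic.004G156300 and the OsSAUR50 homologue Sobic.007G191400 had log2 fold changes of -0.35 and 0.28 (SE 0.25 and 0.19, adjusted p = 0.396 and 0.370). Of the homologues of HAI3, a protein phosphatase that dampens abscisic acid signalling, Sobic.002G172000 was at 2.67, 2.53, 5.07 and 2.91 CPM at 28 d and at 2.27, 1.47 and 1.11 CPM at 35 d. Its ages did not overlap, but the log2 fold change of -1.04 (SE 0.37) missed the threshold (adjusted p = 0.107). Sobic.003G354000 was at 4.05 to 8.87 and 4.96 to 6.42 CPM (adjusted p = 0.751). All 5 of these genes had a more positive change in SRN39 by the interaction test, by 0.88 to 2.98 on the log2 scale (adjusted p 0.00322 to 0.0482), where the interaction was called for 8.06% of all genes tested. The study picked these 5 for a genotype-by-time pattern in the same libraries, so these calls are not independent of that choice. The floral initiation factors Sobic.010G180200 and Sobic.008G168400 had at most 6 and 0 counts in any SQR library and were not tested.

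Gene families were grouped by the words of their descriptions into 33 lists, of which 9 held at least 4 tested genes. The 5 genes of phosphate supply had log2 fold changes from -0.48 to 0.51 and a median of -0.11, with none called. None was called among 8 genes of cell wall loosening and remodelling (median -0.02), 4 class III peroxidases (median -0.12), 10 cytochrome P450 genes (median 0.23), 11 pathogenesis-related and defence proteins (median 0.51) and 4 receptor-like kinases (median 0.45), against a median of 0.06 over all genes tested. All 9 glutathione transferases, enzymes that conjugate glutathione to reactive compounds, had negative values, from -1.10 to -0.04 with a median of -0.41, and none was called. Of 6 genes of metal supply 1 rose and 1 fell, the ZIP10 and metallothionein genes above, and of 4 genes of glycolysis and fermentation likewise the alcohol dehydrogenase rose and the phosphoglycerate mutase fell. Both aquaporins described fell. The 1 gene of the abscisic acid and dehydration list, the DC-8 type protein, fell. Of the other 22 lists, 7 matched no described gene and 15 held 1 to 3 tested genes, none of them called. Matching by words left out called genes named above. The Aux/IAA gene was not in the auxin list, nor the RPL10 match in that of the cytosolic ribosome. The list of sugar metabolism and transport was empty and so held neither MtN3 gene. A list without a call therefore does not stand for its whole family.

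The other 576 called genes have no description in the sources used here, and were described by size and place. Among all 599, the genes that rose had a median log2 fold change of 1.47 and those that fell of -1.09, and the change was over 2 in size for 76 and 63 of them. The ages did not overlap in 539 of the 599, 227 that rose and 312 that fell, beside 14.4% of all genes tested (6.9% with higher and 7.52% with lower libraries at 35 d). The same libraries gave the calls, so this count is not independent of how the 599 genes were chosen. The undescribed genes with the largest falls, Sobic.002G118300 and Sobic.010G041900, had the same order of the 28 d libraries as the RD29B match. The first was at 54.3, 11.6, 159 and 28.2 CPM at 28 d and at 0.758, 1.55 and 0.476 CPM at 35 d, and the second at 18.6, 8.29, 88.2 and 12 CPM and then 0.682, 0.465 and 0.317 CPM. Their log2 fold changes were -6.08 and -6 (SE 1.03 and 1.10, edgeR adjusted p = 0.00850 and 0.0126), and replicate 3 was the highest at 28 d in both.

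Called genes lay on all 10 chromosomes. The share called among genes tested ran from 2.01% on chromosome 8 to 4.47% on chromosome 5. Of 17126 pairs next to each other in the order of tested IDs, 31 had both genes called, 23 of them with the same direction. Whether this is more than scattered calls would give was not tested. The longest run was of 5 genes on chromosome 5 that all rose, by 1.67 to 2.38 on the log2 scale (edgeR adjusted p 0.00583 to 0.0188). Their summed level was 28.4, 25.2, 20.8 and 15.2 CPM at 28 d and 108, 71.8 and 102 CPM at 35 d, and here replicate 2 was the lowest of the 35 d libraries. Neighbouring IDs can share reads where genes overlap or repeat, which was not tested.

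The highest library differed between the genes that rose and those that fell. Of the 256 genes that rose, 183 (71.5%) were highest in replicate 2 at 35 d, against 46.1% of the 9425 tested genes with a positive fold change. Their summed level was 4353, 5030, 5169 and 4006 CPM at 28 d and 9346, 16090 and 8143 CPM at 35 d, with the largest sum in replicate 2. The same libraries chose the genes. Of the 343 that fell, 138 (40.2%) were highest in replicate 1, 113 (32.9%) in replicate 4, 87 (25.4%) in replicate 3 and 5 (1.46%) in replicate 2 at 28 d. Over the 7710 tested genes with a lower mean at 35 d these shares were 32.9%, 33.1%, 21.4% and 12.6%. Their summed level was 68540, 43450, 63110 and 63270 CPM at 28 d and 23630, 21490 and 34610 CPM at 35 d. The part of replicate 2 at 35 d in the rises was not tested beyond the fit without it, which called 57 genes higher and 54 lower, 92 of the 111 being among the 599.

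SRN39 roots, from other plants, gave the same genes a separate measure. With 8 libraries of its own in the same model, 5553 genes were called with age in SRN39 (32.4%). The genes that rose in SQR had a median log2 fold change of 0.44 in SRN39 and those that fell of -0.25, beside 0.04 over all genes tested. Of the 599, 146 were called in the same direction in SRN39 and 40 in the opposite direction. Together these are near the 32.4% of all genes tested that were called with age in SRN39. The sign of the change was the same in both genotypes for 180 of the 256 that rose and 230 of the 343 that fell. Over all 17137 genes tested it was the same for 10998. The difference between the age changes itself was called for 1382 genes (8.06%), and for 186 of the 599 (31.0%), 68 that rose and 118 that fell in SQR. The SQR libraries enter both tests, so this share is not independent of how the 599 genes were chosen.

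**Figure D5:**
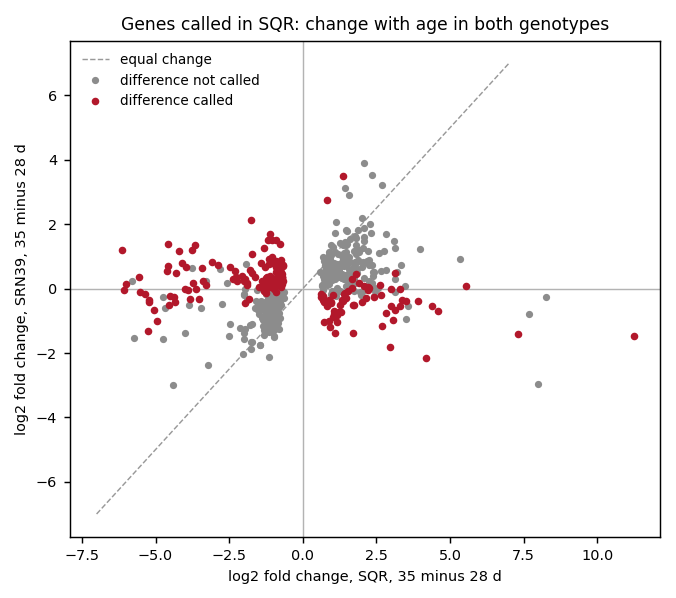
Log2 fold change from 28 to 35 d in SQR (horizontal) and SRN39 (vertical) for the 599 genes called in SQR, with the 186 whose difference between genotypes was called in red and a dashed line of equal change. The gap around 0 on the horizontal axis comes from choosing called genes, and most red points lie near 0 on the vertical axis. Values beyond 7 belong to genes near 0 at 28 d and depend on the default prior count of the edgeR fit.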

How the data were processed

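The authors made 3′ mRNA-Seq libraries from whole roots with the QuantSeq kit, pooled technical replicates, trimmed reads and mapped them to the BTx623 genome with STAR (version not given in the sources used here). The deposited values are whole-number counts of reads per gene, without normalization. Of the columns, 15 were used. A further 1, whose name reads as SQR replicate 4 at 35 d, has no matching sample label and stayed out.

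Analyses ran in R 4.3.3 with edgeR 4.0.16 (quasi-likelihood F test, TMM, two-sided, Benjamini-Hochberg adjustment over 17137 genes at 0.05), limma 3.58.1 and DESeq2 1.42.0. CPM values were scaled by TMM, and log2 CPM used a prior count of 2. The fold changes of the edgeR fit used its own default prior count instead. Each standard error is the log2 fold change over the root of its F. Counting intervals and the floor of 3 counts cover counting error only, as reads are not independent molecules. No 2 libraries held identical counts.

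The genes and lists were chosen with earlier results of these data known. Named are called genes with at least 10 CPM and no overlap between ages (the 12 largest rises and falls with a description, 2 of each without), up to 3 called genes of each list and the 7 genes the study's text names. The other called described genes, the strigolactone genes and the gene called from 7 libraries were added after their values were seen. The RefSeq table matched 0 of the IDs, so no sequences are shown, and set tests were not made. Alternatives were the 7 SQR libraries alone, limma-voom with quantile normalization or group weights, DESeq2, other scalings and filters, a replicate block, an adjusted p of 0.01, libraries thinned to the smallest and leaving out each library. Leaving out replicate 3 at 28 d and replicate 2 at 35 d together, and the ratios near 0 without the latter, were chosen after seeing the data.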

Additional observations from a re-analysis of the deposited data

Results flagged for a closer look

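In 8 of 123 groups of 4 libraries checked, 1 library lay far from the other 3, where chance gives about 1 in 20. At 28 d in SQR, replicate 3 stood high for the WD40 gene Sobic.001G163600 (27.9 CPM), the metallothionein gene Sobic.001G311200 (8.94 CPM), the HAI3 homologue Sobic.002G172000 (5.07 CPM) and the undescribed Sobic.010G041900 (88.2 CPM). At 28 d in SRN39, replicate 3 stood high for ADF3 (Sobic.001G034900, 28.1 CPM), Sobic.001G163600 (4.32 CPM) and the OEP16-S match Sobic.001G396900 (3.24 CPM). The neighbour of Sobic.006G184800 was listed at 0 CPM in SRN39 replicate 2 at 35 d.

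The age change of SRN39 minus that of SQR was called for 22 of 39 named genes tested (edgeR interaction test), beside 8.06% of all genes tested. Most of the 39 were named for a large change in SQR or by the study from these libraries, so this share is not independent of that choice. Among genes that fell in SQR the difference was positive on the log2 scale: 5.19 for Sobic.001G200700, 5.16 for Sobic.001G492000, 5.03 for Sobic.001G396900, 4.78 for Sobic.001G409400, 4.06 for Sobic.001G034900, 3.93 for Sobic.001G383000, 3.6 for Sobic.001G311200, 3.21 for Sobic.001G384100, 2.28 for Sobic.001G353400, 2.07 for Sobic.001G056100, 6.03 for Sobic.002G118300 and 6.15 for Sobic.010G041900. Among genes that rose it was -2.45 for Sobic.001G142800, -2.12 for Sobic.001G209300, -5.45 for the neighbour of Sobic.006G184800 and -12.7 for Sobic.004G283201. The last fitted value rests on 0 counts at 28 d and depends on the default prior count of the edgeR fit. Among genes not called in SQR it was 1.42 for Sobic.001G341400, 2.98 for Sobic.002G172000, 1.31 for Sobic.002G259100, 1.64 for Sobic.003G354000, 1.19 for Sobic.004G156300 and 0.88 for Sobic.007G191400.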

How the results depend on the processing

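Counts of called genes depended on the model and on single libraries. The 599 genes (256 higher, 343 lower) and 1382 interaction calls of the 15-library edgeR model became 2 (2 higher, 0 lower) with the 7 SQR libraries alone, 5 (5 and 0) and 727 with limma-voom group weights, 1405 (553 and 852) with DESeq2, and 39 (20 and 19) and 327 at an adjusted p of 0.01. Library totals without TMM raised the higher calls to 561, or 70.9% of calls against 42.7%, and moved the median of all genes by 0.218 (log2). No named gene that was called changed direction in any alternative. Leaving out SQR replicate 3 at 28 d and replicate 2 at 35 d together, chosen after seeing the data, gave 62 (32 and 30), of which 50 were among the 599. Of 28 called named genes 7 were still called then, 28 by DESeq2 and 21 by limma-voom with quantile normalization.

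With 1 SQR library left out, the 15-library model called 79 to 2128 genes (26 to 968 higher, 53 to 1160 lower) and 878 to 1979 interactions, and the 7-library model 0 to 52 (0 to 34 higher, 0 to 46 lower). The 15-library count was lowest without replicate 4 at 28 d and without replicate 2 at 35 d, where 17 and 19 of the 28 named calls were lost. The share of variation with age stayed at 30.2% to 39.4%, with p = 0.0667 or 0.1, the smallest that 6 libraries allow in the exact permutation test. The cause of these differences was not tested.

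Within SQR, deviations of same-numbered libraries at 28 and 35 d correlated at -0.148, -0.211 and 0.0359 for replicates 1, 2 and 3. Whether same-numbered libraries of SQR and SRN39 at 1 age were paired was not tested. Of the 12 described genes with large falls, replicate 3 was the highest 28 d library for 11 in SQR and for 12 in SRN39. With a replicate block the counts were 126 (51 and 75) and 740 interactions with 15 libraries, and 5 (3 and 2) with the 7 SQR libraries. The 576 called genes without a description, 3 replicates at 35 d and the wide spread among them limit what can be named.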
